A study of Mus musculus with 13 samples.

Results

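The nuclear genes for the proteins of the mitochondrial ribosome were examined in LK cells of the bone marrow. LK cells are sorted for c-kit and against Sca-1 and the lineage markers, and hold committed myeloid and erythroid progenitors. Members were the rows whose symbol begins with Mrpl or Mrps and a number and whose mean over the libraries is at least 0 log2 CPM (log2 of the reads of a gene after scaling to the reads of its library). The pattern matched 77 of the 24062 rows, and 77 of 77 passed the level rule, among 11867 genes that passed it in all. Of the 77 genes, 50 encode proteins of the large subunit, 26 proteins of the small subunit, and Mrps36 is now known to encode a part of the α-ketoglutarate dehydrogenase complex. By origin, 45 have a relative in bacterial ribosomes, 28 are found in mitochondria only and 4 were not classed.

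The marrow of the donors lacked both Tifab and miR-146a (dKO, TIFAB-/-;miR146a-/-, 4 libraries), Tifab alone (TIFAB_KO, TIFAB-/-;miR-146a+/+, 3 libraries), miR-146a alone (miR-146a_KO, TIFAB+/+;miR-146a-/-, 3 libraries) or neither (WT, TIFAB+/+;miR-146a+/+, 3 libraries). Tifab encodes an inhibitor of TRAF6 signalling, miR-146a is a microRNA that represses Traf6 and Irak1, and the human genes of both lie in the deleted segment of del(5q) disease. All 4 groups share the transplant: the donor marrow was grown in Boy/J hosts that had received 7 Gy and, 3 h later, 4.75 Gy, the mice are given as 2 to 5 months old, and no source used here gives the share of host cells in the sorted fraction. The study asked how the losses of both genes combine in blood-forming cells. The labels name no promoter or Cre that restricts the deletions, and the deposited text states 3 mice per group while dKO has 4 libraries. Whether every library came from its own mouse is not in the labels, so the p-values measure the spread between libraries, which may be technical.

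The mitochondrial ribosome makes the few proteins that the mitochondrial genome encodes, all of them core subunits of the respiratory chain and the ATP synthase. Its RNAs come from mitochondrial DNA, but every one of its proteins is encoded in the nucleus, made by cytosolic ribosomes and imported. It descends from the ribosome of the bacterial ancestor and has gained proteins with no bacterial counterpart. Cytosolic ribosomal proteins build the other ribosome of the cell, and loss of one copy of RPS14 among them is known from human del(5q) disease, so the cytosolic set was used for comparison.

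Promoters of this gene family are known for sites of NRF1, of the ETS factor GABP (also named NRF2) and of YY1, and the windows around the transcription starts carried such letters often. RefSeq windows on GRCm38.p6, 250 bases before and 50 after a start, were found for 68 members, in 74 windows. The remaining members were Mrpl19, Mrpl13, Mrpl15, Mrps28, Mrps35, Mrpl54, Mrpl4, Mrpl38 and Mrps34. Both strands were searched for exact letters, and overlapping matches of different motifs were all counted. The ETS letters CCGGAAG were in 33.8% of member windows, against 17.9% of the 11389 windows of tested genes and 8.86% of all 32851 windows. TGCGCA, the core of the NRF1 site and its own reverse complement, was in 28.4% of member windows, against 13.8% of windows of tested genes and 7.76% of all windows. The YY1 letters ATGGCGG were in 17.6% of member windows, against 8.15% of windows of tested genes and 4.05% of all windows. At least one of the 3 was in 62.2% of member windows, against 33.8% of windows of tested genes. The GC-box letters GGGCGG were in 52.7% of member windows against 61.7% of windows of tested genes, CCAAT in 40.5% against 38.1%, and TATAAA in 6.76% against 6.99%. In the 67 windows of cytosolic ribosomal protein genes the ETS letters were in 35.8%, the NRF1 letters in 17.9% and the YY1 letters in 17.9%. The median GC content was 58.5% in member windows and 60.3% in windows of tested genes. These are counts of letters, not of bound sites.

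The windows of 5 members to which the results below return are shown 5′ to 3′ on the strand of the gene, with every searched motif in capitals.
Mrpl44, above WT in every knockout library: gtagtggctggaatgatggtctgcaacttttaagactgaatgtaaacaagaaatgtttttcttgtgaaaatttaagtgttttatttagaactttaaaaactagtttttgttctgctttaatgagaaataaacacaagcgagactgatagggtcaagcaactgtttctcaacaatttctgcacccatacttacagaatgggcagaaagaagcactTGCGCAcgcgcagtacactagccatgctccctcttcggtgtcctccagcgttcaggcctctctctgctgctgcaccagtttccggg
Mrpl23, a gene low in dKO replicates 1 to 3: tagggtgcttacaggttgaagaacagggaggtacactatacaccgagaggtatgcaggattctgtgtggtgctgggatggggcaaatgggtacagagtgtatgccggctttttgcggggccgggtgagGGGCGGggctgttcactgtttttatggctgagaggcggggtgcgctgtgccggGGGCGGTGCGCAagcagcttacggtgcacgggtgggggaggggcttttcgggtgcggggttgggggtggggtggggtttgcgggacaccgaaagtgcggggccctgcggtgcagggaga
Mrps21, among the genes that dKO replicate 4 set apart: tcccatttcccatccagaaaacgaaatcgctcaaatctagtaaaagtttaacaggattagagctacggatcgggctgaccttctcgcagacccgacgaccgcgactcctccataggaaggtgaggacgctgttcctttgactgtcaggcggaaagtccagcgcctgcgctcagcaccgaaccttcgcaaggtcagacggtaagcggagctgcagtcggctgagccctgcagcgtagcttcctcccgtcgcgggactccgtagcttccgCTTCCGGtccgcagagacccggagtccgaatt
Mrps11, the most variable member: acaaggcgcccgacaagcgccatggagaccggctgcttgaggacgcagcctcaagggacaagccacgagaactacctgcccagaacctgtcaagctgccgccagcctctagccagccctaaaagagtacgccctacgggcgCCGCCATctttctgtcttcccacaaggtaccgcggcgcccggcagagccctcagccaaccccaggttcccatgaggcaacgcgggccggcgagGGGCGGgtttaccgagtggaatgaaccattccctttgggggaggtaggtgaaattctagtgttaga
Mrpl46, its head-to-head neighbour: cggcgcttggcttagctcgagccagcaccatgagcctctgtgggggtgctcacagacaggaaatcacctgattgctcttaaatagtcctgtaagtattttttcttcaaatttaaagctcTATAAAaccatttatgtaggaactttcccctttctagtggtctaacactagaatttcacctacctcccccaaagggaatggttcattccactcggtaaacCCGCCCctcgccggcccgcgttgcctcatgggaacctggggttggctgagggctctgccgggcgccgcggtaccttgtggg
The window of Mrpl44 is chr1:79775768-79776067 (+), and its capitals are the NRF1 letters 36 bases before the start. That of Mrpl23 is chr7:142532782-142533081 (+), with GC-box letters 122 and 69 bases before the start and the NRF1 letters 63 bases before it. That of Mrps21 is chr3:95871465-95871764 (-), with the reverse complement of the ETS letters beginning 19 bases into the transcript. Mrps11 (chr7:78782881-78783180, +) has the reverse complement of the YY1 letters 109 bases before the start and GC-box letters 16 bases before it. Mrpl46 (chr7:78783040-78783339, -) has TATAAA 131 bases and the reverse complement of the GC-box letters 31 bases before its start. The last pair of windows share 141 bases, and their GC-box letters are the same 6 bases at chr7:78783115-78783120, read from opposite strands.

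The libraries held 7826843 to 12787982 reads. A member had between 25 and 2416 reads in a library, so the counting error of the lowest members is not small. Tifab lay at 1.72 to 3.46 log2 CPM in dKO, 3.17 to 3.69 in TIFAB_KO, 6.01 to 6.15 in miR-146a_KO and 5.31 to 5.63 in WT, and the miR-146a row had 0 reads in all 13 libraries, so that genotype could not be checked from its own row. The LK label fitted its markers: Kit lay at 8.08 to 8.84 log2 CPM and Ly6a, the gene of Sca-1, at -0.61 to 2.42. Cd3g had 0 to 8 reads in a library, Ms4a1 0 to 4, and the 4 globin rows 0 in every library. Other cells' markers moved between groups: Itgam and Csf1r summed to 131 to 204 CPM in dKO, 206 to 244 in TIFAB_KO, 162 to 200 in miR-146a_KO and 143 to 202 in WT. C1qa and Vcam1, listed for macrophages, summed to 23.9 to 82.0 CPM in dKO, 11.1 to 49.8 in TIFAB_KO, 20.4 to 26.1 in miR-146a_KO and 3.87 to 17.6 in WT. The latter sums rest on Vcam1 alone, since C1qa had 0 to 17 reads in a library (at most 1.33 CPM). Adgre1, also listed, had no row under that symbol, so its level is not known here. The part of other cells in the values below was not tested. In a bulk sample fewer cells of a type and less RNA per cell cannot be told apart. TIFAB_KO replicate 3 stood apart from the rest. It had the highest share of 45S pre-rRNA (10.7% of its reads, against 3.85 to 9.09% in the other 12 libraries) and the lowest median correlation with the other libraries (0.947). In dKO the median correlation was 0.974, 0.962, 0.951 and 0.974 in replicates 1 to 4, so replicate 4 did not stand apart by this measure. Results that rest on TIFAB_KO replicate 3 or on dKO replicate 4 are given with and without them. The calls made without dKO replicate 4 are not taken as the better ones.

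The mitochondrial ribosomal protein genes were expressed at a middle level, far below their cytosolic counterparts. Per length, as CPM per kb of the principal transcript averaged over the 13 libraries, the members had a median of 18.1 and ran from 3.39 to 162. The 78 tested cytosolic ribosomal protein genes had a median of 705 CPM per kb, and all tested genes with a known length a median of 9.25. Together the 77 members took 0.241 to 0.308% of a library's reads, and the 78 cytosolic genes 5.45 to 10.2%. Mrpl30, a large subunit protein with a bacterial relative, was highest at 162 CPM per kb. Mrpl52 (112), Mrps33 (103) and Mrpl36 (79.4), a small protein with a bacterial relative, followed. Lowest were Mrps26 (3.39 CPM per kb), Mrps5 (3.46), Mrps25 (4.33) and Mrpl48 (4.53). Of these, Mrps5 is a relative of a bacterial protein that helps to secure accurate decoding. The length used is that of the longest principal transcript, which is 4278, 4481, 6073 and 4285 bases for these 4 genes. For Mrpl30, Mrpl52, Mrps33 and Mrpl36 it is 969, 418, 1107 and 923 bases, so the order depends on the annotated lengths. Large and small subunit genes had medians of 18.7 and 16.2 CPM per kb, and genes with a bacterial relative and genes of mitochondria only had medians of 18.9 and 17.3, differences that are small beside the range within each class.

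**Figure D1:**
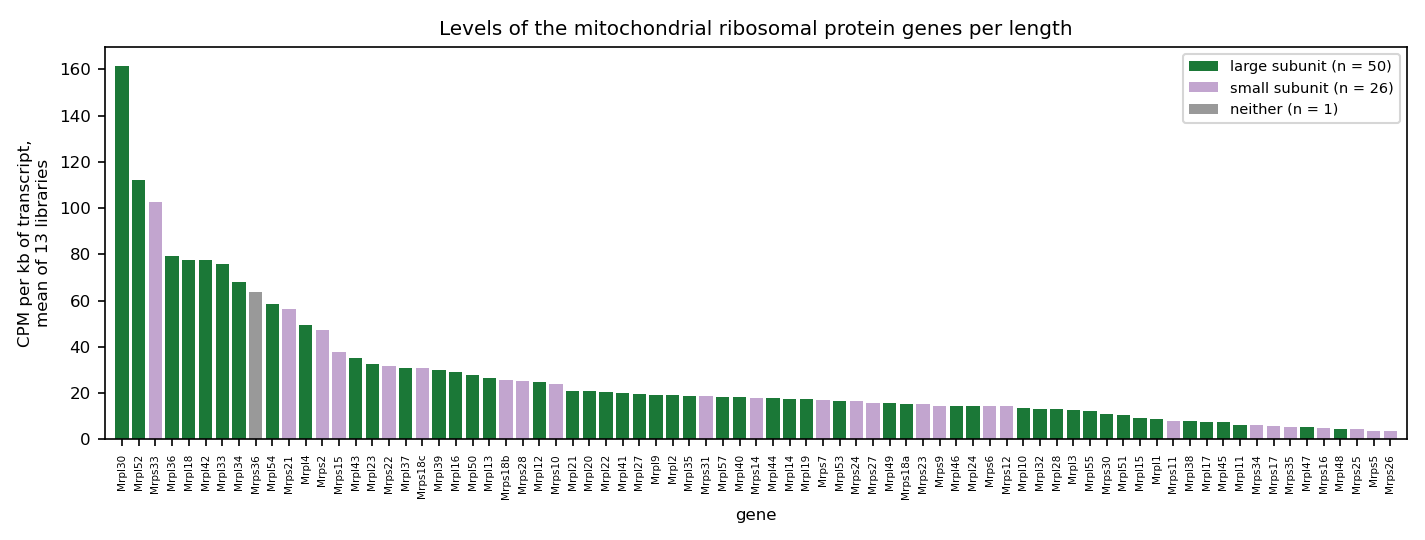
Level of each of the 77 genes per length, as CPM per kb of transcript, mean of 13 libraries, ordered from highest to lowest; bars start at 0 and colours give the subunit. Mrpl30 stands at 162 CPM per kb, the median is 18.1, and both subunits are spread over the whole order.

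No member passed the test between genotypes with all 13 libraries in the fit. In limma on the deposited log2 CPM, with p-values adjusted by Benjamini-Hochberg over all 11867 tested genes, 0 of 77 members passed an adjusted p under 0.05 in any of 6 contrasts. Few genes of any kind passed: 0.0674% of tested genes in dKO against WT, 0.0169% in TIFAB_KO against WT, 0.0843% in miR-146a_KO against WT, 0.0337% in dKO against TIFAB_KO, 0.0506% in dKO against miR-146a_KO and 0.0% in the interaction, the difference between the effect of dKO and the summed effects of both single knockouts. A count of 0 among 77 genes is therefore no result about the family by itself. At an unadjusted p under 0.05, 2 members were higher and 9 lower in dKO against WT (tested genes: 9.7% higher, 4.36% lower), 1 higher and 0 lower in TIFAB_KO against WT (2.99% and 2.12%), and 2 higher and 2 lower in miR-146a_KO against WT (7.23% and 2.3%). In dKO, 2 were higher and 9 lower against TIFAB_KO (12.6% and 5.93%), and 1 was higher and 2 lower against miR-146a_KO (0.868% and 1.06%), while the interaction had 1 above and 2 below 0 (1.68% and 2.55%).

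These unadjusted counts changed in size when single libraries were left out. Without dKO replicate 4, 5 members were higher and 16 lower in dKO against WT (tested genes: 14.4% and 7.85%), and 5 higher and 16 lower in dKO against TIFAB_KO (15.6% and 8.64%). Without dKO replicate 2, 3 members were lower in dKO against WT (2.95% of tested genes) and 5 in dKO against TIFAB_KO (3.96%). Without WT replicate 1, 5 were lower in dKO against WT (2.44%), and without TIFAB_KO replicate 3, 2 were lower in dKO against TIFAB_KO (3.38%). Without dKO replicate 1, dKO replicate 3, WT replicate 2 or WT replicate 3, 6, 7, 6 and 6 were lower in dKO against WT. Of the 11867 tested genes, 454, 365, 446 and 485 were lower in those fits. Without dKO replicate 1, dKO replicate 3, TIFAB_KO replicate 1 or TIFAB_KO replicate 2, 9, 7, 10 and 8 were lower in dKO against TIFAB_KO. There 644, 590, 790 and 625 tested genes were lower. In dKO against miR-146a_KO, 7 were lower without dKO replicate 4 (2.39%).

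The median log2 fold change of the members was -0.03 for dKO, 0.03 for TIFAB_KO and -0.03 for miR-146a_KO, each set against WT. It was -0.04 in dKO against TIFAB_KO, -0.01 in dKO against miR-146a_KO and -0.03 in the interaction. All 6 medians are small beside the 0.13 log2 units by which library medians spread within a group, and each changed sign under at least 1 alternative setting, so they carry no direction. Members with a negative value numbered 45, 34, 43, 48, 41 and 41 of 77 in these 6 contrasts. Of tested genes, 40.0, 52.4, 37.8, 39.9, 52.2 and 48.8% had a negative value. With each library centred on its median, the member medians were -0.10 for dKO, 0.01 for TIFAB_KO and -0.12 for miR-146a_KO against WT. In that setting 50, 36 and 52 of 77 members were below 0. The median 95% interval of a member reached 0.44 log2 units to either side in dKO against WT and 0.47 in the single knockouts against WT. The interval lay wholly inside 1 log2 unit either way (less than a doubling or halving) for 70 of 77 members in dKO against WT, 73 in TIFAB_KO against WT, 73 in miR-146a_KO against WT, 70 in dKO against TIFAB_KO and 75 in dKO against miR-146a_KO. Over all tested genes those shares were 73.0, 74.7, 71.9, 72.3 and 79.8%. The interaction was less precise: 56 of 77 members had such an interval, beside 57.8% of tested genes, and the median interval of a member reached 0.64 to either side. The spread of a member between libraries of a group had a median SD of 0.27, beside 0.26 for tested genes in the same range of levels.

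**Figure D2:**
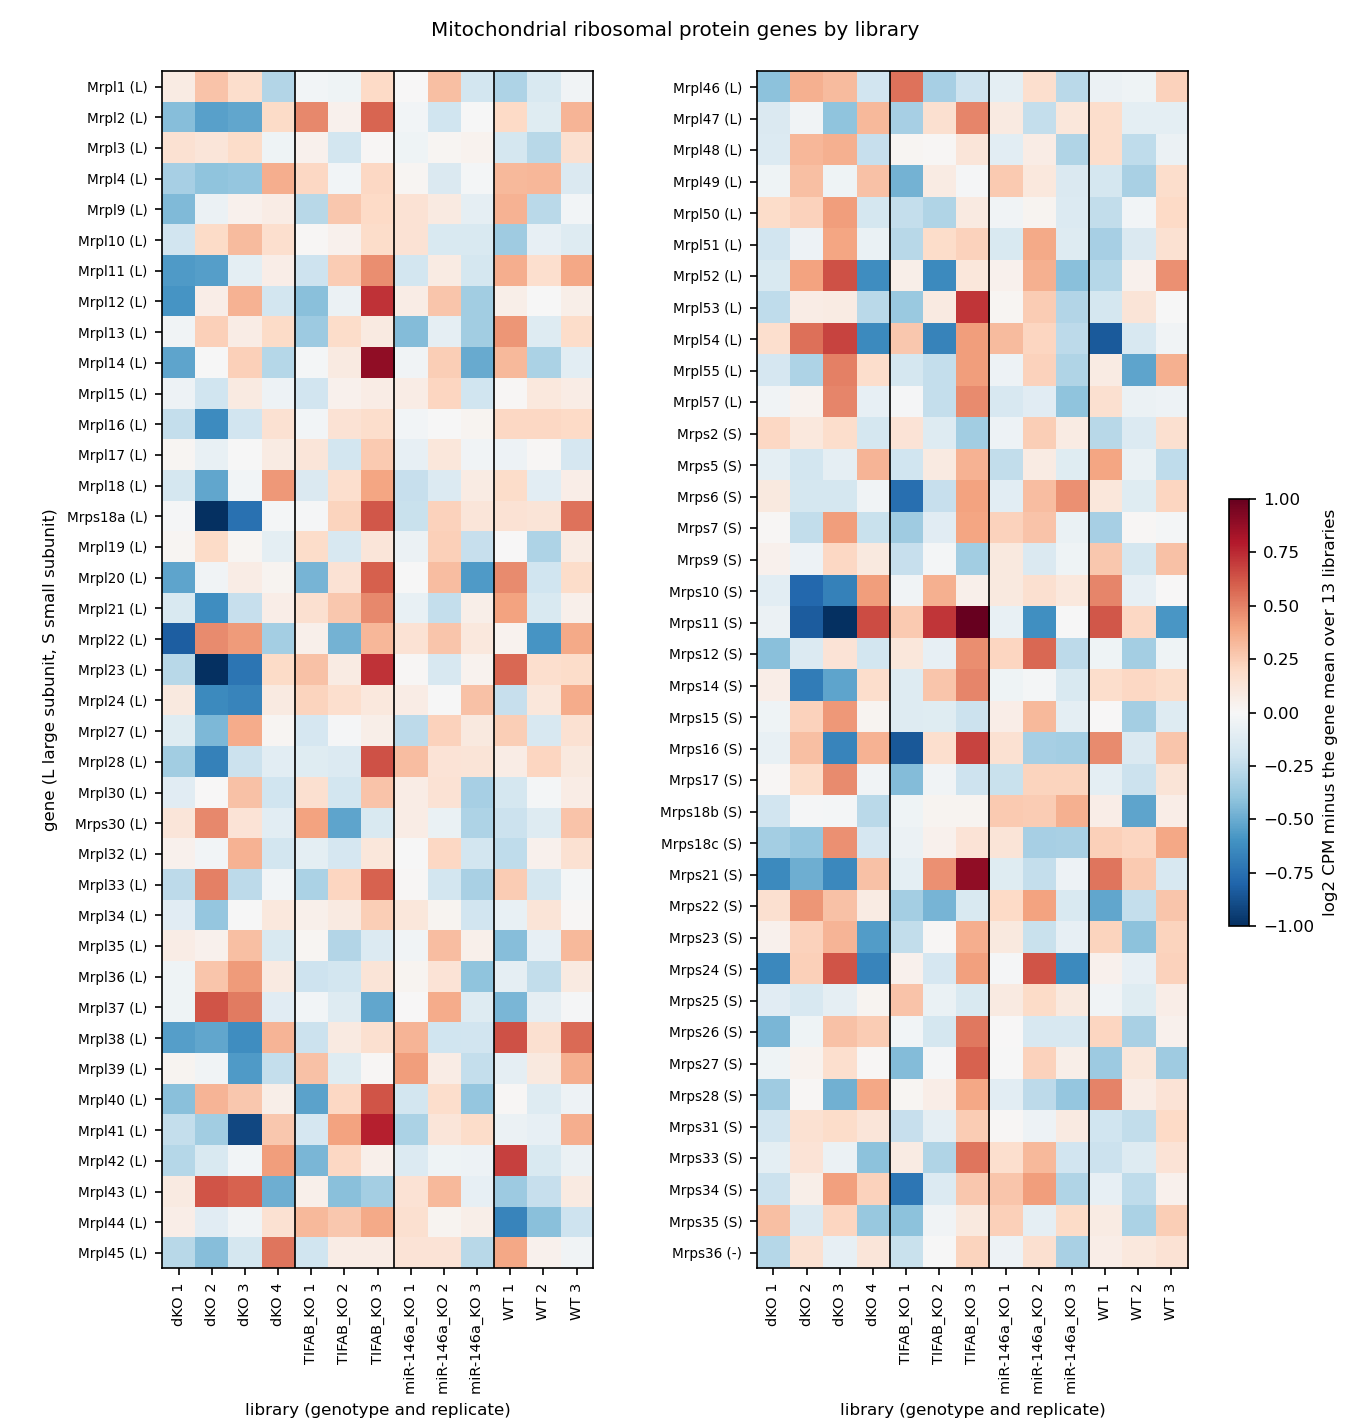
Log2 CPM of the 77 genes in the 13 libraries, minus the mean of the gene; red is above and blue below its mean, the scale ends at 1 log2 unit either way, and black lines part the genotypes. No genotype is of 1 colour throughout: the library medians run from -0.13 to 0.24 and overlap between genotypes.

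The cytosolic ribosomal protein genes took another course. Their median log2 fold change was -0.53 in dKO against WT, 0.03 in TIFAB_KO against WT, -0.39 in miR-146a_KO against WT, -0.58 in dKO against TIFAB_KO and -0.09 in dKO against miR-146a_KO. The median of all tested genes in these contrasts was 0.08, -0.01, 0.09, 0.09 and -0.01. Below 0 lay 72 of 78 cytosolic genes in dKO against WT and 76 of 78 in miR-146a_KO against WT. Beside them, 45 and 43 of 77 mitochondrial ones and 40.0 and 37.8% of tested genes lay below 0. With all libraries, 1 cytosolic gene passed in dKO against WT and 0 in miR-146a_KO against WT. A negative value with an unadjusted p under 0.05 was held by 50 and 34 of the 78, beside 4.36 and 2.3% of tested genes. Without dKO replicate 4, 30 cytosolic genes fell in dKO against WT and 33 in dKO against TIFAB_KO (with all libraries, 1 each). Of all tested genes, 2.83 and 2.34% passed without that library, beside 0.0674 and 0.0337% with it. With only the compared groups in the fit, 4 cytosolic genes fell in miR-146a_KO against WT, where 89 tested genes passed (10 with all groups). The contrasts against WT share the WT libraries, and those of dKO share the dKO libraries.

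By library, the median deviation of the members from their gene means was -0.11, -0.03, 0.09 and 0.02 log2 CPM in dKO replicates 1 to 4. It was -0.10, -0.01 and 0.24 in TIFAB_KO, 0.01, 0.13 and -0.13 in miR-146a_KO, against 0.04, -0.12 and 0.10 in WT. All 4 groups overlapped, and TIFAB_KO replicate 3 was the highest library. The cytosolic genes lay at -0.36, -0.30, -0.31 and -0.06 in dKO, 0.10, 0.04 and 0.66 in TIFAB_KO, -0.13, -0.06 and -0.27 in miR-146a_KO, against 0.47, 0.12 and 0.18 in WT. There every dKO and miR-146a_KO library was below every TIFAB_KO and WT library.

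**Figure D3:**
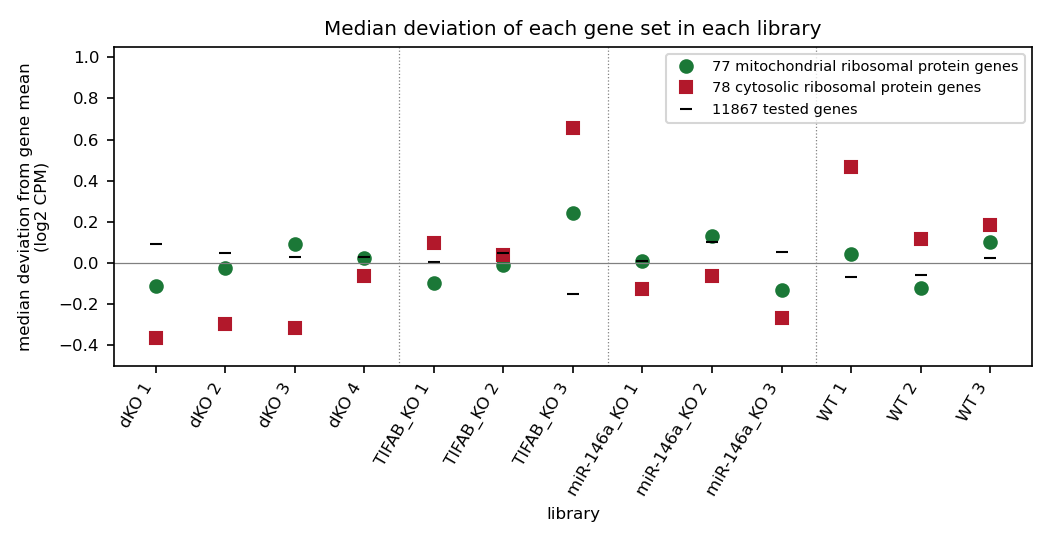
Median deviation from the gene mean, in log2 CPM, of 77 mitochondrial ribosomal protein genes (circles), 78 cytosolic ribosomal protein genes (squares) and 11867 tested genes (dashes) in each library; dotted lines part the genotypes. The circles stay between -0.13 and 0.24 and overlap between genotypes, while the squares are below 0 in all dKO and miR-146a_KO libraries and above 0 in all TIFAB_KO and WT libraries.

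The relation of these differences to transcript length was examined in the same fits. The median transcript was 1288 bases long among the members, 882 among the cytosolic genes and 2982 among all tested genes with a length. Of the 77 members, 25 have a transcript under 1000 bases, and their median log2 fold change was -0.12 in dKO against WT, against -0.15 for all 733 tested genes and -0.58 for the 50 cytosolic genes of that length. The 52 longer members had a median of -0.00, against 0.09 for the 10570 tested genes and -0.42 for the 28 cytosolic genes of that length. In miR-146a_KO against WT the medians under 1000 bases were -0.06 for members, -0.12 for tested genes and -0.45 for cytosolic genes, and in dKO against TIFAB_KO they were -0.15, -0.22 and -0.62. Short mitochondrial ribosomal protein genes thus lay close to other short genes, and cytosolic ones lay below both. Across the 77 members the correlation of the log2 fold change with log2 length was 0.251 in dKO against WT. It was 0.235 across the 11303 tested genes with a length and 0.120 across the 78 cytosolic genes. The correlation with expression level in that contrast was 0.313 across members, 0.380 across cytosolic genes and -0.032 across those tested genes. Genes of a library share its depth and RNA quality, and these values are descriptions. With the length trend of each library removed, the median of the members was 0.02 and that of the cytosolic genes -0.37 in dKO against WT.

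**Figure D4:**
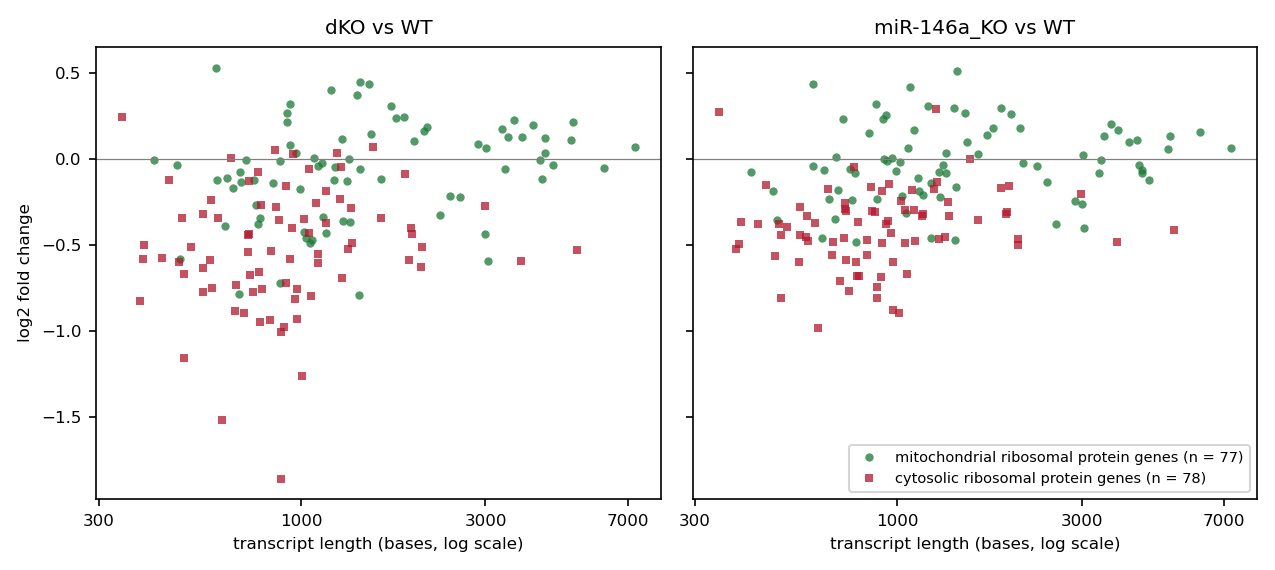
Log2 fold change against transcript length (log axis) for 77 mitochondrial (circles) and 78 cytosolic (squares) ribosomal protein genes, in dKO against WT (left) and miR-146a_KO against WT (right). Circles lie about 0 with a median of -0.03 in either panel, and squares of the same lengths lie lower, with medians of -0.53 and -0.39.

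The medians of the large and the small subunit genes, whose difference was not tested, were -0.04 and -0.02 in dKO against WT, 0.04 and 0.03 in TIFAB_KO against WT, -0.04 and 0.11 in miR-146a_KO against WT, and -0.05 and -0.06 in dKO against TIFAB_KO. Genes with a bacterial relative had a median of -0.12 in dKO against WT, with 32 of 45 below 0, and genes of mitochondria only one of 0.10, with 11 of 28 below 0. In dKO against TIFAB_KO these medians were -0.16 and 0.02. The medians of both origins lay within 0.03 of each other in TIFAB_KO and in miR-146a_KO against WT. Their transcripts had median lengths of 1219 and 1461 bases, and the difference between the origins was not tested.

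Mrpl44 was the member with the clearest difference between groups. It encodes a large subunit protein of mitochondria only, with a fold related to ribonuclease III, and lies at chr1:79776018-79781445 (+, mm10). It had 4.72, 4.54, 4.63 and 4.81 log2 CPM in dKO, 4.99, 4.93 and 5.04 in TIFAB_KO, 4.82, 4.69 and 4.72 in miR-146a_KO, against 4.0, 4.24 and 4.45 in WT. All 10 knockout libraries were above all 3 WT libraries, and the gap between the lowest dKO and the highest WT library was small. The log2 fold change against WT was 0.45 ± 0.16 (SE) for dKO, 0.76 ± 0.17 for TIFAB_KO and 0.51 ± 0.17 for miR-146a_KO (limma adjusted p = 0.258, 0.429 and 0.454), and none passed. The interaction was -0.82 ± 0.24 (limma adjusted p = 0.725), the double knockout lying below the sum of the single ones. Mrpl44 was the only member above WT in all 10 knockout libraries, a pattern held by 0.573% of tested genes. The gene and its exons overlap Wdfy1 (chr1:79702262-79776143, -), an endosomal protein gene on the opposite strand, by 126 bases, and no source used here gives the strand setting of the counting, so reads in the shared bases cannot be told apart. Wdfy1 had 6.27, 6.13, 6.05 and 5.95 log2 CPM in dKO, 3.83, 3.98 and 2.89 in TIFAB_KO, 5.35, 5.30 and 5.50 in miR-146a_KO, against 3.84, 3.57 and 4.16 in WT. Wdfy1 rose by 2.24 ± 0.23 in dKO and by 1.53 ± 0.24 in miR-146a_KO against WT (limma adjusted p = 2.72e-05 and 0.0114). In TIFAB_KO, where Mrpl44 was highest, Wdfy1 differed from WT by -0.29 ± 0.24 (limma adjusted p = 0.999).

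Mrpl16, a large subunit protein with a bacterial relative, was the only member below WT in all 10 knockout libraries, a pattern held by 0.312% of tested genes. It had 4.83, 4.44, 4.88 and 5.22 log2 CPM in dKO, 5.04, 5.22 and 5.24 in TIFAB_KO, 5.04, 5.07 and 5.09 in miR-146a_KO, against 5.28, 5.28 and 5.27 in WT. The separation from dKO replicate 4 and TIFAB_KO replicate 3 was narrow. Its log2 fold change against WT was -0.43 ± 0.17 for dKO, -0.11 ± 0.18 for TIFAB_KO and -0.21 ± 0.18 for miR-146a_KO (limma adjusted p = 0.286, 0.999 and 0.714).

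**Figure D5:**
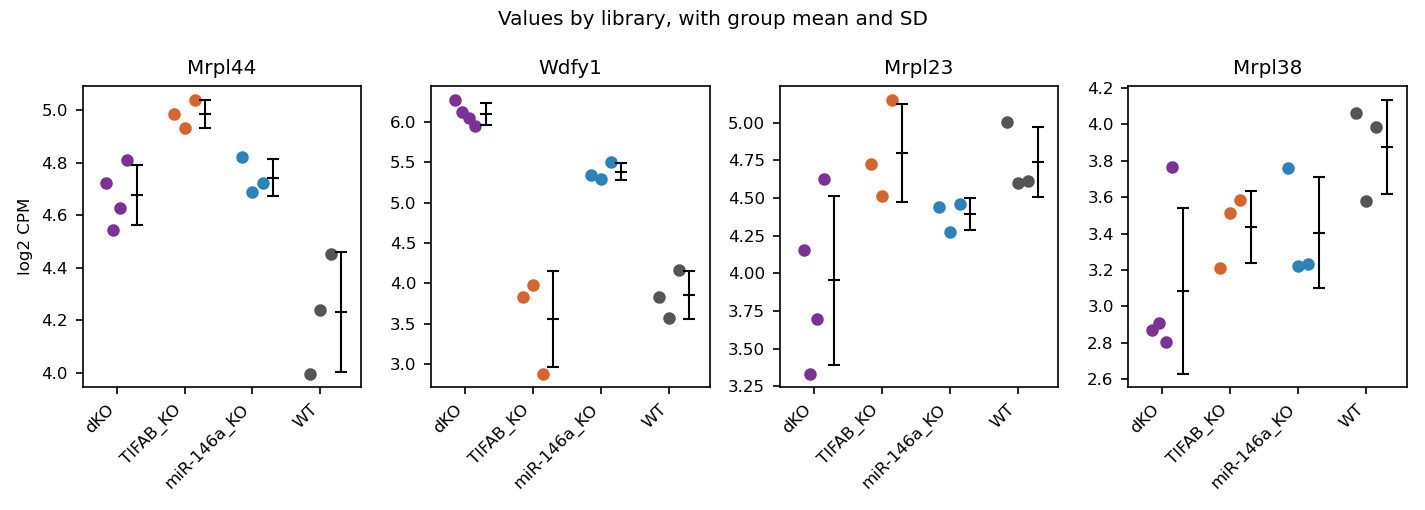
Log2 CPM of Mrpl44, its overlapping neighbour Wdfy1, Mrpl23 and Mrpl38 in each library (points), with the group mean and SD (bars); each panel has its own axis. Mrpl44 is lowest in WT, Wdfy1 is high in dKO and miR-146a_KO, and Mrpl23 and Mrpl38 are low in dKO replicates 1 to 3 but not in replicate 4.

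In dKO against WT the members with the smallest unadjusted p were large subunit genes. Mrpl23, a relative of the bacterial protein at the mouth of the exit tunnel, had 4.15, 3.34, 3.70 and 4.62 log2 CPM in dKO and 5.00, 4.60 and 4.61 in WT, with TIFAB_KO at 4.72, 4.51 and 5.15 and miR-146a_KO at 4.44, 4.27 and 4.46. dKO replicate 4 reached the range of WT and the other 3 dKO libraries lay below it. The log2 fold change was -0.78 ± 0.25 (limma adjusted p = 0.224). Mrpl38, a protein of mitochondria only in the central protuberance of the large subunit, had 2.87, 2.91, 2.80 and 3.76 log2 CPM in dKO, 3.21, 3.51 and 3.59 in TIFAB_KO, 3.76, 3.22 and 3.23 in miR-146a_KO, against 4.06, 3.58 and 3.99 in WT. Its log2 fold change was -0.79 ± 0.26 (limma adjusted p = 0.229). Again only dKO replicate 4 overlapped WT. Mrpl11, a protein of the stalk base that binds translation factors in bacteria, had -0.59 ± 0.21 (limma adjusted p = 0.254), and Mrps18a, a large subunit protein in spite of its name, -0.72 ± 0.26 (0.259). Mrpl11 lay at 3.64, 3.65, 4.11 and 4.27 log2 CPM in dKO against 4.57, 4.37 and 4.59 in WT, and Mrps18a at 3.70, 2.70, 2.96 and 3.69 in dKO against 3.85, 3.84 and 4.25 in WT. Both groups stayed apart for these 2 genes, as they did for Mrpl16, Mrpl28 and Mrps14 among lower members and Mrpl44 among higher ones (tested genes: 3.62% lower and 8.9% higher with no overlap). Mrpl37 was the other member higher at an unadjusted p under 0.05, at 0.44 ± 0.21.

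Leaving out dKO replicate 4 changed the calls. Without it 336 genes passed in dKO against WT (2.83% of tested genes), and they included Mrpl23 (-1.01 ± 0.23, limma adjusted p = 0.0274) and Mrpl38 (-1.02 ± 0.24, limma adjusted p = 0.0337). Both fell in that setting, while the median of the 77 members was -0.01. In dKO against TIFAB_KO, 278 genes passed without it (2.34%), among them the members Mrpl2, Mrpl23, Mrps11 and Mrps21. A fit with the replicate number as a block, which sets aside the only library numbered 4, called 2 members in dKO against WT (2.37% of tested genes) and 2 in dKO against TIFAB_KO (1.23%).

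In dKO against TIFAB_KO, the members with the smallest unadjusted p were Mrpl23, Mrpl2, Mrps21, Mrps22 and Mrps18a. Mrpl2, a relative of a bacterial protein near the peptidyl transferase centre, had 3.85, 3.73, 3.76 and 4.47 log2 CPM in dKO, 4.76, 4.32 and 4.86 in TIFAB_KO, 4.25, 4.07 and 4.27 in miR-146a_KO, against 4.47, 4.15 and 4.61 in WT. Mrps21, a small subunit protein with a bacterial relative, had 4.08, 4.22, 4.07 and 5.00 in dKO, 4.61, 5.17 and 5.60 in TIFAB_KO, 4.59, 4.47 and 4.66 in miR-146a_KO, against 5.25, 4.97 and 4.55 in WT. For both, dKO replicate 4 lay inside the range of TIFAB_KO and the other 3 dKO libraries lay below it. The log2 fold change was -0.84 ± 0.25 for Mrpl23, -0.69 ± 0.21 for Mrpl2 and -0.78 ± 0.25 for Mrps21 (limma adjusted p = 0.152, 0.155 and 0.164). Mrps22, a small subunit protein of mitochondria only, had 5.37, 5.65, 5.51 and 5.29 log2 CPM in dKO against 4.87, 4.75 and 5.06 in TIFAB_KO, with no overlap, and 0.56 ± 0.19 (limma adjusted p = 0.174). In human patients, mutations of MRPS22 cause mitochondrial disease. Mrps18a had -0.72 ± 0.26 (limma adjusted p = 0.186). Without overlap, 2 members were higher in dKO (Mrps15, Mrps22) and 3 lower (Mrpl21, Mrpl24, Mrpl44), where tested genes had 6.82% and 3.84%. Without TIFAB_KO replicate 3 the median of the members in this contrast was 0.05 with 29 of 77 below 0, in place of -0.04 and 48 of 77, and that of the cytosolic genes was -0.33 in place of -0.58.

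Mrps11 varied most of all members, with an SD within groups of 0.64 log2 CPM. It encodes a platform protein of the small subunit with a bacterial relative (chr7:78783119-78792989, +) and had 2.87, 2.10, 1.56 and 3.58 log2 CPM in dKO, 3.19, 3.65 and 4.02 in TIFAB_KO, 2.86, 2.32 and 2.93 in miR-146a_KO, against 3.55, 3.14 and 2.34 in WT. The groups overlapped except for miR-146a_KO and TIFAB_KO. Its log2 fold change of -1.09 ± 0.40 in dKO against TIFAB_KO (limma adjusted p = 0.188) was the largest of any member in the 5 pairwise contrasts. In the GENCODE annotation the gene bodies of Mrps11 and of Mrpl46, on the opposite strand, overlap by 413 bases. The annotation used for the counting is not given, so whether reads there were mixed is not known.

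In TIFAB_KO against WT, Mrpl44 was followed by Mrps9 (-0.33 ± 0.19), Mrpl38 (-0.44 ± 0.28), Mrpl10 (0.27 ± 0.19) and Mrps11 (0.61 ± 0.43), with a limma adjusted p of 0.999 each. Mrpl10 is the anchor of the stalk of the large subunit and had 4.52, 4.55 and 4.69 log2 CPM in TIFAB_KO against 4.15, 4.43 and 4.38 in WT. Mrps9, a small subunit protein with a bacterial relative, had 4.13, 4.34 and 4.01 in TIFAB_KO against 4.63, 4.18 and 4.65 in WT, where the groups overlapped. Without overlap, Mrpl10 and Mrpl44 were higher and Mrpl16 and Mrps18c lower in TIFAB_KO (tested genes: 5.21% higher, 3.31% lower). Without TIFAB_KO replicate 3 the median of the members was -0.08 and that of the cytosolic genes -0.16, in place of 0.03 and 0.03.

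In miR-146a_KO against WT, Mrpl44 was followed by Mrpl13 (-0.46 ± 0.19, limma adjusted p = 0.501), Mrps18b (0.42 ± 0.19, 0.515), Mrps28 (-0.48 ± 0.23, 0.523) and Mrps18c (-0.46 ± 0.22, 0.535). Mrps18b and Mrps18c are small subunit paralogs of one bacterial protein. Mrps18b had 5.03, 5.02 and 5.13 log2 CPM in miR-146a_KO against 4.84, 4.24 and 4.84 in WT, and Mrps18c had 4.40, 3.94 and 3.94 in miR-146a_KO against 4.51, 4.48 and 4.66 in WT, so that neither overlapped and they lay on opposite sides. Their reads may be hard to separate where the paralogs resemble each other. Mrpl13 had 4.56, 4.91 and 4.65 in miR-146a_KO against 5.44, 4.87 and 5.18 in WT, with overlap. Without overlap, 3 members were higher (Mrpl44, Mrps18b, Mrps25) and 7 lower (Mrpl11, Mrpl16, Mrpl23, Mrpl57, Mrps14, Mrps18c, Mrps28), beside 15.5% higher and 6.4% lower among tested genes.

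In dKO against miR-146a_KO, 76 of 77 members were within 0.5 log2 units of 0 (93.2% of tested genes), as were 76 in miR-146a_KO against WT (85.3%) and 75 in TIFAB_KO against WT (88.2%). The smallest unadjusted p were those of Mrpl28 (-0.53 ± 0.22), Mrps18b (-0.41 ± 0.17), Mrpl13 (0.41 ± 0.18), Mrps18a (-0.49 ± 0.26) and Mrpl57 (0.33 ± 0.18), each with a limma adjusted p of 1.00. Mrpl28 had 3.43, 3.11, 3.56 and 3.67 log2 CPM in dKO and 4.09, 3.92 and 3.91 in miR-146a_KO. No dKO library reached a miR-146a_KO library for this gene, one of 3 lower members with no overlap (Mrpl28, Mrps18b, Mrps25), beside 2 higher ones (Mrpl13, Mrpl57) and 2.12% lower and 1.61% higher among tested genes. In the interaction, after Mrpl44, the values were 0.61 ± 0.27 for Mrpl13, -0.55 ± 0.25 for Mrps18b, -0.63 ± 0.34 for Mrps12, a relative of the bacterial decoding-centre protein, and 0.43 ± 0.26 for Mrps9 (limma adjusted p = 1.00 each).

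Members with roles beyond the ribosome or near its membrane face did not pass either. Mrpl12, which also binds the mitochondrial RNA polymerase, had -0.13 ± 0.25 in dKO against WT. Mrpl45, which holds the exit tunnel to the inner membrane, had -0.22 ± 0.23, and Mrps30, a large subunit protein named in older work as a cell death gene, 0.18 ± 0.21. Mrpl41, also described as an apoptosis-related gene, had -0.38 ± 0.27, Mrps36 had -0.13 ± 0.17 and Mrps6 had -0.14 ± 0.25 (limma adjusted p from 0.52 to 0.837 over these 6 genes). In dKO against TIFAB_KO, Mrpl41 had -0.64 ± 0.27, with an unadjusted p under 0.05 and a limma adjusted p of 0.225. Mrps6 shares exon bases and its locus with the inositol transporter gene Slc5a3.

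No member lies at the targeted loci. Of the members on chromosome 11, which carries miR-146a, the nearest were Mrpl22, 14.8 Mb away, and Mrpl55, 15.8 Mb away, and on chromosome 13, which carries Tifab, Mrpl36 was nearest at 17.1 Mb. The human MRPL22 gene lies on the long arm of chromosome 5, the arm affected in del(5q). Mouse Mrpl22 had 3.01, 4.30, 4.25 and 3.49 log2 CPM in dKO, 3.88, 3.36 and 4.16 in TIFAB_KO, 3.97, 4.11 and 3.93 in miR-146a_KO, against 3.86, 3.24 and 4.20 in WT, with -0.00 ± 0.30 in dKO against WT. Mrpl55 had 0.08 ± 0.27 and Mrpl36 0.27 ± 0.17 in that contrast (limma adjusted p = 0.997, 0.909 and 0.456 for the 3 genes). All 4 groups overlapped for Mrpl22.

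The members did not move as one across libraries. The median pairwise correlation over the 13 libraries was 0.167 for the 2926 pairs of members and 0.733 for the 3003 pairs of cytosolic ribosomal protein genes. The mean of the members was followed best by Mrpl20 (r = 0.881 with the mean of the other members), Mrpl12 (0.862) and Mrpl14 (0.832) within the family. Outside it, the genes most like that mean were Nme2 (r = 0.896, and 0.826 without TIFAB_KO replicate 3), which encodes a nucleoside diphosphate kinase, the proteasome gene Psma2 (0.895 and 0.835), the respiratory chain genes Cox7b (0.889 and 0.790), Cox17 (0.885 and 0.899), a copper carrier for complex IV, and Ndufa4 (0.871 and 0.727), and Ttc1 (0.874 and 0.742). These correlations are descriptions over libraries that differ in depth and RNA quality.

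Other genes of mitochondrial translation were read from lists. The 21 genes for charging mitochondrial tRNAs are synthetases, of which Kars and Gars also serve the cytosol, and the amidotransferase genes Qrsl1 and Gatc. The 16 translation factors include the related genes Oxa1l, Lrpprc and Slirp. The 9 genes of mitochondrial transcription and DNA replication include the replication genes Polg, Polg2, Peo1 and Ssbp1. In dKO against WT, 0 of 21, 0 of 16 and 0 of 9 passed. Of 24 assembly factors and 6 ribosomal proteins under other symbols, 0 passed. The same held in the other 5 contrasts for these lists. The 21 charging genes had a median log2 fold change of 0.25 in dKO, 0.11 in TIFAB_KO and 0.19 in miR-146a_KO against WT. In dKO against WT, 15 of 21 were above 0 and 5 were higher at an unadjusted p under 0.05 (tested genes: 9.7%). Those 5 include Qrsl1 (0.54 ± 0.22) and Gatc (0.69 ± 0.30). Wars2, the tryptophan enzyme, had 4.79, 4.95, 4.94 and 4.75 log2 CPM in dKO, 3.95, 4.38 and 4.03 in TIFAB_KO, 4.47, 4.84 and 4.76 in miR-146a_KO, against 3.95, 4.29 and 4.49 in WT. dKO lay above both TIFAB_KO and WT in every library. Its log2 fold change was 0.62 ± 0.18 in dKO against WT and 0.74 ± 0.18 in dKO against TIFAB_KO (limma adjusted p = 0.216 and 0.13). Tfb1m, which methylates the small ribosomal RNA of mitochondria, had 0.67 ± 0.20 in dKO against WT, and Mterfd1, an assembly factor of the large subunit, 0.75 ± 0.23 (limma adjusted p = 0.216 each). The translation factors with related genes, the assembly factors and the other ribosomal proteins had medians of 0.06, 0.01 and 0.01 in that contrast. The genes of mitochondrial transcription and DNA replication had a median of 0.03.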

How the data were processed

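TopHat, featureCounts, limma and the mm10 build are named in the submitters' processing notes; no source used here gives versions, gene annotation or strand setting. RNA was amplified with NuGEN Ovation RNA-Seq v2 and made into Nextera XT libraries, per the labels' protocols. The deposited log2 CPM values match the formula of voom: 0.5 read had been added per gene and 1 per library total. Whole reads were recovered for 100% of values within 0.01 read and used for depth, CPM and read numbers. Their totals ran from 7826843 to 12787982 per library.

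The 13 libraries were grouped by genotype label, and every column of the deposited log2 CPM table was used. limma 3.58.1 in R 4.3.3 fitted 1 mean per group to the 11867 genes whose mean log2 CPM was 0 or above (residual degrees of freedom 9, prior degrees of freedom 9.53, trend on expression), with Benjamini-Hochberg adjustment within each contrast and a threshold of 0.05. The fit was also run on simulated counts with independent genes and 1 dispersion for all of them. Shifts shared by the genes of a library were not simulated, so that run does not give the error rate in these data. Group errors are SD, and errors of fold changes are SE. A fold change is on the scale of log2 CPM with the added 0.5 read, which understates that of low genes. Gene positions and lengths of principal transcripts are from GENCODE M21 (GRCm38, the mm10 build), matched by symbol for 22724 of 24062 rows, and 32 of 77 members share exon bases with another gene. Promoter windows are from RefSeq. The members, gene lists, origins and tests were chosen with earlier results of these data known.

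Named with values were any member passing a contrast, the 5 smallest unadjusted p of each contrast, the 4 highest and 4 lowest levels per length, members within 20 Mb of a targeted locus, and members with a role written down from general knowledge. Mrpl16, Wars2, Tfb1m, Mterfd1, Mrpl37 and Mrpl46 were named after their values were seen. The alternatives changed the filter (none, or a mean log2 CPM of 3), the scaling (quantile normalization, median centring), the variance model (robust, without a trend, or voom weights on the recovered reads), the design (a replicate block, only the compared groups, each library left out) and the length trend (removed). Of 79 listed cytosolic ribosomal protein genes 78 were tested.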

Additional observations from a re-analysis of the deposited data

Results flagged for a closer look

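In the 4 dKO libraries, replicate 4 stood apart from the others for 3 of the members named above. Mrpl2 lay at 4.47 log2 CPM in that library and at 3.73 to 3.85 in the other 3, so that its gap to the nearest library was 0.838 of the range of the group. Mrpl38 lay at 3.76, against 2.80 to 2.91 in the others (0.892 of the range), and Mrps21 at 5.00, against 4.07 to 4.22 (0.836 of the range). Each is past Dixon's 95% limit for 4 values. Chance passes about 1 group in 20, and 36 values were examined; over all 77 members 5 passed. The 3 genes lie on the same side of the other dKO libraries, towards the values of TIFAB_KO and WT.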

How the results depend on the processing

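The count of members that passed was 0 in each of the 6 contrasts and stayed 0 under all alternatives except those with the replicate number as a block and those without dKO replicate 4. With the replicate block, 2 passed in dKO against WT (Mrpl23 and Mrpl38, in 281 genes, where 8 passed without it) and 2 in dKO against TIFAB_KO (Mrpl2 and Mrpl23, in 146 genes, where 4 passed without it). With 1 library left out at a time, the count ran from 0 to 2 in dKO against WT and from 0 to 4 in dKO against TIFAB_KO. No pairing by number was seen, and the labels do not say whether the numbers pair libraries. Over 18 same-numbered pairs the correlation ran from -0.197 to 0.229, with 2 over 0.1. Of 13 libraries, 4 correlated best with a library of their own number. With so few libraries per group these values cannot exclude a pairing. Only dKO has a number 4, so the block fits that library exactly.

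The median of the members ran from -0.11 to 0.02 in dKO against WT over all settings, from -0.08 to 0.10 in TIFAB_KO against WT, from -0.12 to 0.06 in miR-146a_KO against WT, and from -0.16 to 0.05 in dKO against TIFAB_KO. The cytosolic genes stayed below 0 in dKO against WT (-0.60 to -0.37) and in miR-146a_KO against WT (-0.47 to -0.30). Counts over all genes moved most without dKO replicate 4 (336 in dKO against WT and 278 in dKO against TIFAB_KO). They also moved in miR-146a_KO against WT with only the compared groups in the fit (89, where 10 passed with all groups), in TIFAB_KO against WT without TIFAB_KO replicate 1 (44, where 2 passed) and in dKO against TIFAB_KO without TIFAB_KO replicate 2 (124). In dKO against WT, 28 passed without TIFAB_KO replicate 3 and 13 with only the compared groups. The cause of these moves was not tested. A fit on only the compared groups does not exist for the interaction, which uses all 4. Depth limits the lowest members, with 25 reads in a library.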
